A study of Mus musculus with 32 samples.

Results

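The striatum of YAC128 mice was compared with that of wild-type (WT) littermates over all 32 libraries of the series, 24 from YAC128 mice and 8 from WT mice. YAC128 mice carry a human huntingtin gene with an expanded CAG repeat on a yeast artificial chromosome and are a model of Huntington disease. The YAC128 libraries form 3 groups of 8, from mice given artificial cerebrospinal fluid (aCSF), the antisense oligonucleotide AON12.1 or a scrambled oligonucleotide, and each group was given equal weight in the YAC128 mean. The 8 WT mice received aCSF. Every mouse was on a B6 background and had a cannula in the lateral ventricle, through which 10 µL was given 3 times, first at about 6 months of age and again 2 and 4 weeks later. In the oligonucleotide groups each injection held 500 µg. Striatum was collected at 12 months of age, after an MRI scan. No WT mouse received an oligonucleotide, so in 2 of the 3 YAC128 groups genotype and oligonucleotide differ from WT together. For this reason each gene was also tested for a difference among the 3 YAC128 groups.

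The striatum consists mainly of spiny projection neurons, which use the transmitter GABA and integrate cortical and dopaminergic input. Those of the indirect pathway express the dopamine receptor Drd2, the adenosine receptor Adora2a and the opioid precursor Penk, and those of the direct pathway express Drd1, Tac1 and Pdyn. In Huntington disease these neurons are lost, the indirect pathway early, and astrocytes, microglia and oligodendrocytes change as well.

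Each library was a 3' RNA-seq library primed with oligo-dT from 100 ng of total RNA of 1 mouse, so the spread between libraries includes that between mice. Gene counts per library averaged 980797 in YAC128 (658934 to 1419313) and 893248 in WT (659490 to 1153050). The 6 genes used to check the tissue were present in all 32 libraries, from Ppp1r1b, the DARPP-32 phosphatase inhibitor, at 438.6 to 2049 CPM (counts scaled to library size with TMM factors), to Adora2a at 29.3 to 127.8 CPM. Reads outside any annotated feature made up 23.9% ± 5.0 of a YAC128 library and 19.5% ± 4.4 of a WT library (SD, n = 24 and 8, two-sided permutation test p = 0.0350). The difference was 2.65 percentage points among mice whose numbers begin with 18 (8 YAC128, 3 WT, exact permutation p = 0.509) and 5.44 among those whose numbers begin with 19 (16 YAC128, 5 WT, exact permutation p = 0.0248). WT replicate 1 stood apart from the other WT libraries, at 30.2% against at most 19.2%. Without it the difference was 5.87 percentage points (permutation p = 0.00424). That library was left out for its value of this same share, which widens the difference by design, so this p-value is descriptive only. Further libraries that stood apart were AON12.1 replicate 2, the highest of its group for myelin genes, and scrambled replicate 5, the highest of its group for the cortical transporter Slc17a7.

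The feature NM_001388492, the only one without an Ensembl mouse identifier, separated the genotypes. It had 94.4, 134 and 187.5 CPM (lowest, median and highest) in the 24 YAC128 libraries and 0, 2.85 and 7.06 CPM in the 8 WT libraries. No YAC128 library overlapped a WT library, and no annotation used here pairs this identifier with a gene. Its log2 fold change was 5.22 ± 0.21 (SE, adjusted p = 2.39e-21), and it was 5.26, 5.26 and 5.15 in the aCSF, AON12.1 and scrambled groups over WT. The endogenous mouse gene Htt had 71.3, 101.9 and 130.4 CPM in YAC128 and 76.2, 85.2 and 129.5 CPM in WT. Its groups overlapped, and its log2 fold change of 0.19 ± 0.10 did not pass the test (adjusted p = 0.398).

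Of 10679 genes tested with edgeR's quasi-likelihood test, 25 (0.234%) passed an adjusted p of 0.05. Higher in YAC128 were 10 genes (0.0936%) and lower were 15 (0.14%). At an unadjusted p under 0.05 there were 719 higher genes (6.73%) and 725 lower genes (6.79%). Of all tested genes, 5334 had positive and 5345 negative log2 fold changes. Among the calls, the highest fold changes after NM_001388492 were 2.76 for Spata5 and 2.29 for Enpp6, and the lowest was 0.497 for Etnppl. In 3 genes (0.0281% of those tested) no YAC128 library overlapped a WT library, and these were NM_001388492, Enpp6 and Spata5. NM_001388492 and Spata5 had few counts in WT, so they entered the test through YAC128 libraries. The count of calls depended on single libraries: it was 103 without WT replicate 1, 45 without YAC128 aCSF replicate 2, 39 without AON12.1 replicate 5, 16 without WT replicate 2, 14 without WT replicate 8 and 13 without WT replicate 6. Without WT replicate 1, AON12.1 replicate 2 and scrambled replicate 5 together, a choice made after seeing the data, 118 genes were called and all 25 were among them.

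**Figure D1:**
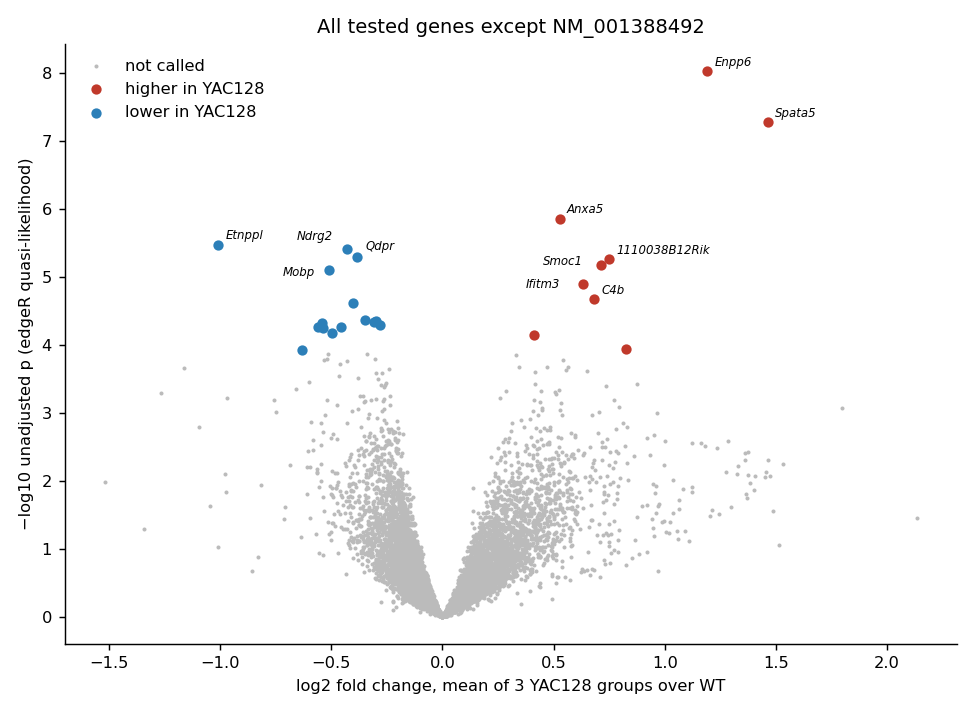
Each point is a tested gene, with its log2 fold change (mean of the 3 YAC128 groups over WT) on the x axis and −log10 of its unadjusted edgeR p on the y axis. Genes higher in YAC128 (red) include Enpp6 at 1.19 and Spata5 at 1.46, and genes lower in YAC128 (blue) include Etnppl at −1.01, with the 11 smallest p-values named and NM_001388492 at 5.22 left out to keep the scale.

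Among oligodendrocyte genes, Enpp6 rose and the mature myelin genes Mobp and Qdpr fell. Enpp6 (ENSMUSG00000038173) encodes a choline phosphodiesterase and marks oligodendrocytes that are newly forming. It had 27.4, 35.3 and 52.5 CPM in YAC128 and 7.41, 17.6 and 24.3 CPM in WT. Every YAC128 library lay above every WT library, with a log2 fold change of 1.19 ± 0.16 (adjusted p = 4.96e-05). The value was 1.08 in the aCSF group, 1.16 in the AON12.1 group and 1.34 in the scrambled group, and the adjusted p for a difference among them was 0.683. Of the 21 tested genes of oligodendrocyte precursors and newly formed oligodendrocytes, Enpp6 was the only call, 13 had positive and 8 negative values, and their median was 0.01, against a median of −0.0001 over all tested genes. Bcas1, another gene of newly formed oligodendrocytes, had a negative value of −0.25 ± 0.10 that did not pass (adjusted p = 0.266).

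Mobp, a basic protein of compact myelin, had 305.1, 435.5 and 666.8 CPM in YAC128 and 491.3, 648 and 729.2 CPM in WT. Its log2 fold change was −0.51 ± 0.10 (adjusted p = 0.00848), and 19 of 24 YAC128 libraries lay below the lowest WT library. With the AON12.1 group given weight 0 its adjusted p was 0.0558. Qdpr, which regenerates the cofactor tetrahydrobiopterin, had 179.9, 259.7 and 438.6 CPM in YAC128 and 298, 346.4 and 358.9 CPM in WT (log2 fold change −0.39 ± 0.07, adjusted p = 0.00731). Here 20 of 24 YAC128 libraries lay below WT and AON12.1 replicate 2 lay above. Apod, a lipid-carrying lipocalin, went the other way, with 280.7, 424.1 and 805.9 CPM in YAC128 and 281.4, 305.4 and 468.9 CPM in WT (0.41 ± 0.09, adjusted p = 0.0329). Qdpr and Apod also differed among the YAC128 groups. Over WT, Qdpr had −0.33 with aCSF, −0.18 with AON12.1 and −0.65 with the scrambled oligonucleotide (adjusted p among them 0.0138), and Apod had 0.14, 0.69 and 0.41 (adjusted p 0.0218). The call on Apod was lost without any of WT replicates 2, 3, 5, 6, 7 and 8 or AON12.1 replicate 8.

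Of all 30 myelin genes tested, 10 had positive and 20 negative values, with a median of −0.05. The calls by edgeR were Apod higher and Qdpr and Mobp lower. Voom called 3 members and DESeq2 called 5. With the share of reads outside features as a covariate edgeR called 4. Myelin basic protein Mbp (−0.17 ± 0.09, adjusted p = 0.41), Mal (−0.47 ± 0.12, adjusted p = 0.0691) and Tspan2 (−0.46 ± 0.11, adjusted p = 0.0597) did not pass with edgeR. The summed level of the list was 7085, 9026 and 15000 CPM in YAC128 and 8688, 10130 and 11660 CPM in WT. In bulk tissue, fewer cells of a type and less RNA per cell cannot be told apart.

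**Figure D2:**
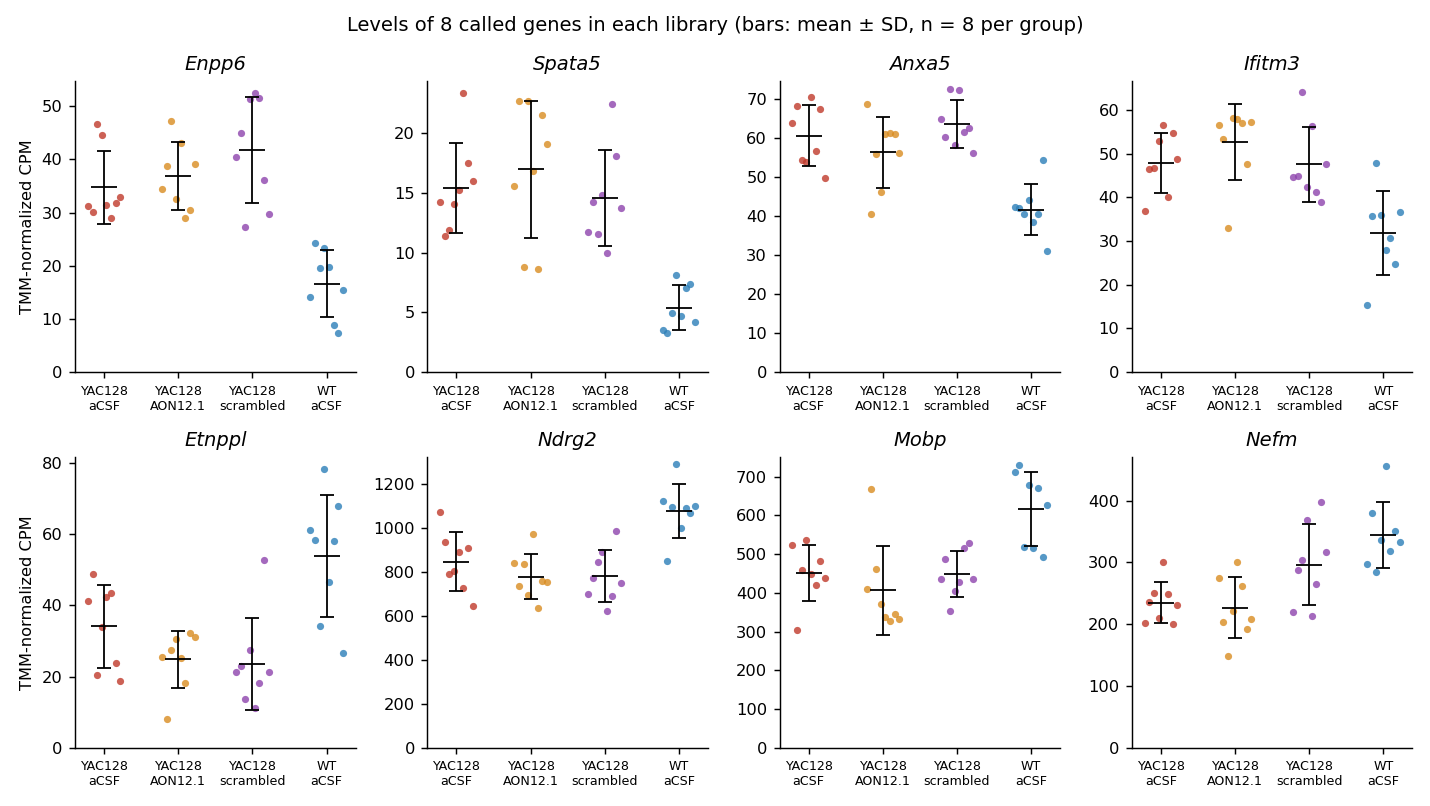
TMM-normalized CPM (y axis, from 0) of 8 called genes in every library of the 3 YAC128 groups and of WT (x axis), with points for libraries and bars for the mean ± SD (n = 8 per group). For Enpp6 and Spata5 all YAC128 points lie above all WT points, whereas for Etnppl, Ndrg2, Mobp and Nefm most YAC128 points lie low but the ranges overlap.

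Spata5 and Anxa5 rose and lie close together on chromosome 3. Spata5 (ENSMUSG00000027722), an AAA ATPase that acts in ribosome maturation, had 8.61, 15.0 and 23.4 CPM in YAC128 and 3.24, 4.78 and 8.10 CPM in WT. The WT levels were near the floor, with few counts per library. The genotypes did not overlap, and the log2 fold change was 1.46 ± 0.22 (adjusted p = 1.86e-04). It was 1.43, 1.57 and 1.38 in the aCSF, AON12.1 and scrambled groups. Anxa5 (ENSMUSG00000027712), a calcium-dependent phospholipid-binding protein, had 40.5, 61.0 and 72.6 CPM in YAC128 and 31.0, 41.3 and 54.3 CPM in WT. Its ranges overlapped, with 20 of 24 YAC128 libraries above the highest WT library (0.53 ± 0.09, adjusted p = 0.00369). The 4 tested genes between them did not pass, with values between −0.10 and 0.15.

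Astrocyte genes of the resting state mostly had negative log2 fold changes, and Etnppl, Ndrg2 and Aldoc fell. Etnppl (ENSMUSG00000019232), an astrocyte-enriched phospho-lyase that degrades phosphoethanolamine, had 8.09, 25.4 and 52.8 CPM in YAC128 and 26.8, 58.2 and 78.3 CPM in WT. The groups overlapped, and 13 of 24 YAC128 libraries lay below the lowest WT library (−1.01 ± 0.19, adjusted p = 0.00693). Ndrg2 (ENSMUSG00000004558), also enriched in astrocytes, had 623.6, 782.8 and 1074 CPM in YAC128 and 850.8, 1091 and 1290 CPM in WT (−0.43 ± 0.08, adjusted p = 0.00693). Aldoc, the brain form of the glycolytic enzyme aldolase, had 629.3, 726.6 and 878.3 CPM in YAC128 and 791.2, 888.9 and 968.3 CPM in WT (−0.28 ± 0.06, adjusted p = 0.0284). For Ndrg2 17 and for Aldoc 20 of the 24 YAC128 libraries lay below every WT library. The Aldoc call was lost without any of WT replicates 2, 4, 6, 7 and 8.

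Of 26 homeostatic astrocyte genes tested, 20 had negative and 6 positive values, with a median of −0.16. Aldoc was the only call by edgeR, voom called 2 members and DESeq2 called 3. At an unadjusted p under 0.05, 12 were lower and 1 higher. The 1 higher was the calcium-binding protein S100b (0.33 ± 0.08, adjusted p = 0.0535). S100b passed as higher with voom (adjusted p = 0.044) and DESeq2 (adjusted p = 0.00699). Over WT, S100b had 0.09 ± 0.09 with aCSF, 0.49 with AON12.1 and 0.41 with the scrambled oligonucleotide (adjusted p among the groups 0.0638). The YAC128 mean of S100b therefore rests mostly on the oligonucleotide groups, which have no WT counterpart. The glutamate transporter Slc1a2 had −0.19 ± 0.07 (adjusted p = 0.21). With the share of reads outside features as a covariate, the list's median was −0.12 and Aldoc had −0.25 and was not called (adjusted p = 0.124).

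Genes of reactive astrocytes were described by 7 tested members of a list of 20, 6 with positive values and a median of 0.42. The list's median was −0.01 in the aCSF group, 0.61 in the AON12.1 group and 0.31 in the scrambled group over WT. The complement component C4b was the only call by edgeR (0.68 ± 0.14, adjusted p = 0.0188), and reads of C4b may be shared with its near-identical copy C4a. Voom called 1 member and DESeq2 called 2. C4b had 31.0, 47.6 and 174.8 CPM in YAC128 and 25.8, 38.9 and 53.5 CPM in WT. Its values over WT were −0.01 with aCSF, 1.63 with AON12.1 and 0.43 with the scrambled oligonucleotide (adjusted p among the groups 2.39e-09), so the mean over YAC128 libraries does not describe the aCSF group. The C4b call was lost without any of WT replicates 3, 5 and 8. The intermediate filament genes Vim (0.44 ± 0.12, adjusted p = 0.0862) and Gfap (0.26 ± 0.16, adjusted p = 0.475) did not pass. Over WT, Gfap had −0.16, 0.61 and 0.31 in the aCSF, AON12.1 and scrambled groups.

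The tested interferon-induced and MHC class I genes had positive values throughout. Ifitm3 (ENSMUSG00000025492), a membrane protein that restricts virus entry, had 32.9, 48.2 and 64.2 CPM in YAC128 and 15.3, 33.2 and 47.8 CPM in WT. The ranges overlapped, with 12 of 24 YAC128 libraries above the highest WT library (0.63 ± 0.13, adjusted p = 0.0124). With the AON12.1 group given weight 0 the adjusted p was 0.0528. Over WT it had 0.60 with aCSF, 0.73 with AON12.1 and 0.58 with the scrambled oligonucleotide, and the adjusted p among the groups was 0.829. The light chain of MHC class I, B2m, had 53.7, 100.6 and 139.6 CPM in YAC128 and 47.8, 64.9 and 83.6 CPM in WT, and did not pass (0.54 ± 0.13, adjusted p = 0.0548).

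Of 31 interferon and MHC class I genes listed, 10 were tested, and all 10 had positive values, with a median of 0.45. The filter on low counts could be met by YAC128 libraries alone. Members low in WT could thus enter through YAC128, so the shared direction is a description only. Ifitm3 was the only call by edgeR, DESeq2 called 3 members, and 7 had an unadjusted p under 0.05. Among them were the interferon-induced Ifi27 (0.47 ± 0.12, adjusted p = 0.0611) and the MHC heavy chain H2-K1 (0.47 ± 0.14, adjusted p = 0.154), which shares sequence with other H2 genes. With the share of reads outside features as a covariate the median was 0.43. The summed level of the list was 307.6, 427.5 and 559.2 CPM in YAC128 and 264.9, 297.8 and 381.6 CPM in WT.

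The promoters of Ifitm3 and B2m are shown because they carry the letters GAAANNGAAA, the core of the interferon-stimulated response element, searched on both strands. These windows of 300 bases, from 250 before to 50 after the gene start, are RefSeq sequences of GRCm38.p6, a build other than that of the counts, and capitals mark the matches. In Ifitm3 the matches begin 2 and 19 bases after the start, and in B2m 139 bases before it.
Ifitm3, chr7:141010695-141010994, minus strand: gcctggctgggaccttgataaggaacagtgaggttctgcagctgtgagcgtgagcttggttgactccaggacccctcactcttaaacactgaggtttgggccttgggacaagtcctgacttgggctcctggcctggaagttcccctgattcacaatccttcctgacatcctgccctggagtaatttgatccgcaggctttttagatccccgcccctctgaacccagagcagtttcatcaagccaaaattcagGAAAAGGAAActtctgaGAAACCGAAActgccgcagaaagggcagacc
B2m, chr2:122147437-122147736, plus strand: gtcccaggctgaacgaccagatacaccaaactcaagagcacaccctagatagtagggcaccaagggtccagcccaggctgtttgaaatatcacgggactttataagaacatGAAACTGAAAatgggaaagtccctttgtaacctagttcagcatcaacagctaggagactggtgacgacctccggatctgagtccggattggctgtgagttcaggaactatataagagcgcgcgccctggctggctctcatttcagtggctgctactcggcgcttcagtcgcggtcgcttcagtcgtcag
The core was present in 4 of the 10 windows found for 8 of the 10 tested interferon and MHC class I genes, and in 3.44% of all 32851 windows. The others with a match were Stat2 (0.26 ± 0.22) and Ifit3 (0.15 ± 0.18), neither of which was called. Of the 26 windows found for 16 of the 25 called genes, 2 (7.69%) held the core. These belonged to Ifitm3 and to Sgk1, a gene lower in YAC128. A match describes letters and does not show binding.

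No marker of spiny projection neurons was called by edgeR. Penk, the enkephalin precursor of the indirect pathway, had 1340, 2981 and 4688 CPM in YAC128 and 2482, 4272 and 5694 CPM in WT. Its log2 fold change was −0.53 ± 0.13 with an adjusted p of 0.0548. Penk passed with DESeq2 (adjusted p = 0.0145), and also when WT replicate 1 was left out (adjusted p = 0.0286). It did not pass with voom (adjusted p = 0.0835) or with the share of reads outside features as a covariate (adjusted p = 0.188). Over WT, Penk had −0.76 with aCSF, −0.225 with AON12.1 and −0.62 with the scrambled oligonucleotide (adjusted p among the groups 0.248). The adenosine receptor Adora2a had 29.3, 61.6 and 127.8 CPM in YAC128 and 63.0, 90.7 and 117.7 CPM in WT (−0.52 ± 0.14, adjusted p = 0.0942). Adora2a likewise passed with DESeq2 (adjusted p = 0.0413), but not with voom (adjusted p = 0.088) or the same covariate (adjusted p = 0.246). Over WT, Adora2a had −0.83, −0.23 and −0.50 in the aCSF, AON12.1 and scrambled groups (adjusted p among the groups 0.264). Drd2 had −0.28 ± 0.15 (adjusted p = 0.422). Of 9 indirect-pathway genes tested, 8 had negative values, with a median of −0.23, and 3 had an unadjusted p under 0.05. None was called by edgeR or voom, and DESeq2 called 2.

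Direct-pathway markers had smaller values in the YAC128 mean. Drd1 had −0.11 ± 0.14 (adjusted p = 0.772), the substance P precursor Tac1 −0.11 ± 0.12 (adjusted p = 0.712) and the dynorphin precursor Pdyn −0.12 ± 0.12 (adjusted p = 0.698). Of the 8 tested, 5 had negative values, with a median of −0.08, and none was called by edgeR, voom or DESeq2 or had an unadjusted p under 0.05. Over WT the list's median was −0.12 with aCSF, 0.21 with AON12.1 and −0.22 with the scrambled oligonucleotide. In the same order Tac1 had −0.35, 0.22 and −0.21 (adjusted p among the groups 0.113). Drd1 had −0.16, 0.12 and −0.30 (adjusted p among the groups 0.443), and Pdyn −0.27, 0.16 and −0.26 (0.262). The difference between the pathways was not tested. The signalling genes Ppp1r1b (−0.22 ± 0.15) and Pde10a (0.17 ± 0.19), a phosphodiesterase, the cannabinoid receptor Cnr1 (0.12 ± 0.15) and the sodium channel subunit Scn4b (−0.14 ± 0.21) had adjusted p-values of 0.546, 0.734, 0.775 and 0.814.

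The light and medium neurofilament subunits, structural proteins of axons, fell. The medium subunit Nefm had 148.2, 242 and 397.5 CPM in YAC128 and 284.5, 334 and 455.6 CPM in WT (−0.46 ± 0.10, adjusted p = 0.0284). The light subunit Nefl had 172.5, 229.4 and 275.7 CPM in YAC128 and 253.1, 281.8 and 325.5 CPM in WT (−0.30 ± 0.06, adjusted p = 0.0284). For Nefm 17 and for Nefl 20 of the 24 YAC128 libraries lay below every WT library. The heavy subunit Nefh, on chromosome 11 and looked up after these values were seen, had −0.27 ± 0.15 and did not pass (adjusted p = 0.444). Nefm was lost as a call without any of WT replicates 2, 4, 5, 6, 7 and 8, and Nefl without any of WT replicates 2, 3, 6 and 8.

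Nefm and Nefl are neighbours on chromosome 14, which held 5 calls among 364 tested genes, all lower in YAC128. Over all tested genes 0.234% were called. Between Nefm and Nudt18 lie 16 tested genes, both included, of which 4 were called: Nefm, Nefl, Pdlim2 and Nudt18. The ends of this stretch are calls and were set after the calls were seen. Its share of calls therefore cannot be read against that over all genes. Pdlim2, a PDZ and LIM domain protein, had 23.3, 38.1 and 63.1 CPM in YAC128 and 37.0, 57.3 and 64.1 CPM in WT (−0.54 ± 0.12, adjusted p = 0.0284). Nudt18, which hydrolyses oxidized nucleotides, had 49.4, 73.6 and 92.9 CPM in YAC128 and 79.4, 94.7 and 111.9 CPM in WT (−0.40 ± 0.08, adjusted p = 0.0196). Pdlim2 was lost as a call without any of WT replicates 2, 4, 5, 6 and 8, and Nudt18 without any of WT replicates 5, 6 and 8. With the share of reads outside features as covariate none of the 4 was called, at −0.39 for Nefm, −0.25 for Nefl, −0.51 for Pdlim2 and −0.33 for Nudt18. The 12 other genes of this stretch did not pass, with values between −0.22 and 0.73. The fifth call on the chromosome, Ndrg2, lies 116 tested genes away.

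**Figure D3:**
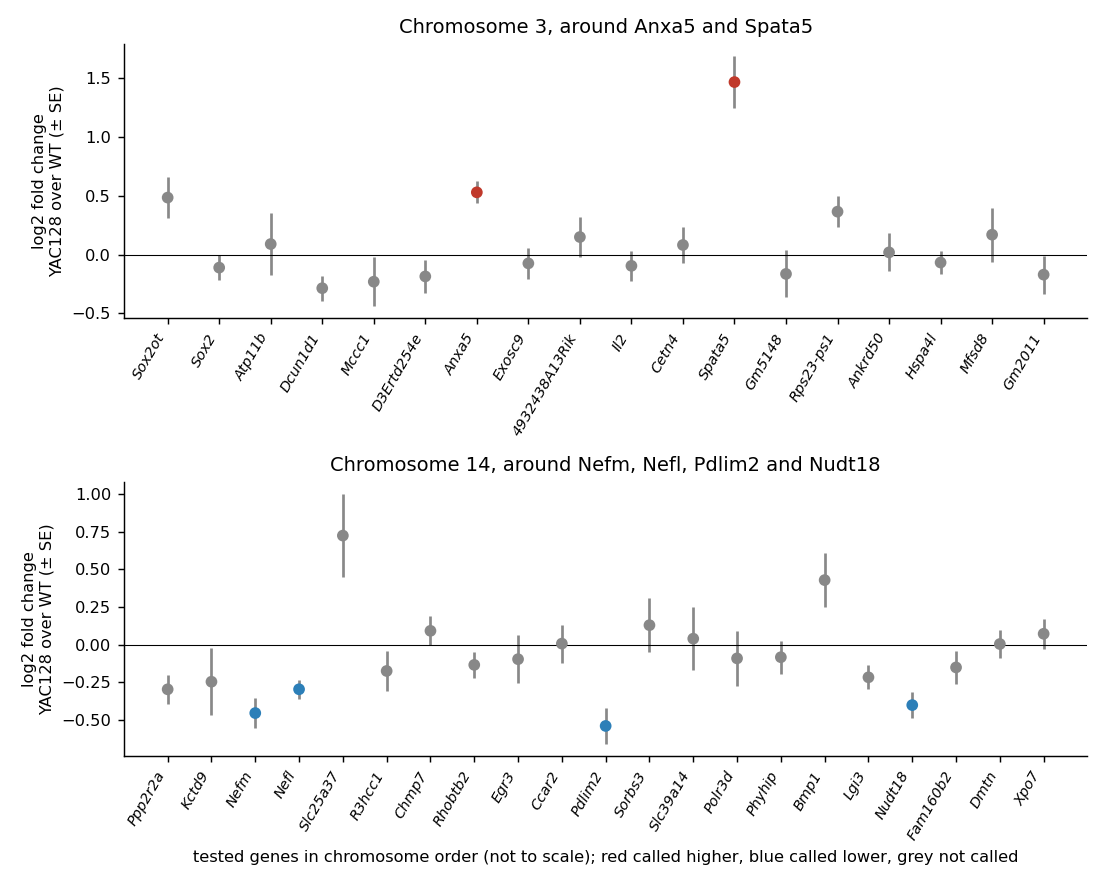
Log2 fold change ± SE (y axis, YAC128 mean over WT) of tested genes in chromosome order (x axis, not to scale) around Anxa5 and Spata5 on chromosome 3 and around Nefm and Nudt18 on chromosome 14. Red points were called higher, blue points lower and grey points not called: Anxa5 at 0.53 and Spata5 at 1.46 stand above 4 genes near 0, and Nefm, Nefl, Pdlim2 and Nudt18 lie between −0.54 and −0.30.

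Wfs1, an endoplasmic reticulum membrane protein whose loss causes Wolfram syndrome, had 130, 225.2 and 294.2 CPM in YAC128 and 249.6, 302 and 351.9 CPM in WT (−0.50 ± 0.11, adjusted p = 0.0323). In Wfs1, 20 of 24 YAC128 libraries lay below the lowest WT library. Igfbp4, which binds insulin-like growth factors, had 34.8, 52.5 and 87.3 CPM in YAC128 and 61.2, 76.1 and 103 CPM in WT (−0.54 ± 0.12, adjusted p = 0.0284). Metap1, an aminopeptidase that removes initiator methionine, had 12.8, 23.4 and 35.8 CPM in YAC128 and 28.0, 32.9 and 55.1 CPM in WT (−0.63 ± 0.15, adjusted p = 0.0499). These 3 genes fell outside the rule for named genes and were added after their values were seen. Metap1 was called in 4 of 32 fits that each left out 1 library. The call on Wfs1 was lost without any of WT replicates 3, 5, 6 and 8, and that on Igfbp4 without any of WT replicates 2, 3, 6 and 8.

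Smoc1 and Tspan15 rose, and Tmem246 and Fam213b fell. Smoc1, a secreted calcium-binding matrix protein, had 15.8, 24.6 and 38.8 CPM in YAC128 and 11.3, 14.1 and 19.8 CPM in WT, with 18 of 24 YAC128 libraries above every WT library (0.71 ± 0.14, adjusted p = 0.00779). Tspan15, a tetraspanin partner of the protease ADAM10, had 9.47, 18.0 and 30.6 CPM in YAC128 and 4.91, 10.2 and 16.9 CPM in WT (0.83 ± 0.19, adjusted p = 0.0499), and was called in 14 of 32 fits without 1 library. Tmem246, a transferase that modifies GPI anchors, had 63.7, 82.5 and 100 CPM in YAC128 and 96.9, 105.9 and 113.6 CPM in WT. It had 22 of 24 YAC128 libraries below every WT library (−0.35 ± 0.08, adjusted p = 0.0284). Fam213b, a prostamide and prostaglandin F synthase, had 126.2, 153.7 and 196.1 CPM in YAC128 and 162.7, 199.9 and 209.8 CPM in WT (−0.31 ± 0.07, adjusted p = 0.0284). Tmem246 was lost as a call without any of WT replicates 2, 5, 6, 7 and 8, and Fam213b without any of WT replicates 2, 4, 5, 7 and 8.

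Sgk1, a kinase that glucocorticoids induce, had 31.3, 56.2 and 90.6 CPM in YAC128 and 62.0, 70.5 and 125.8 CPM in WT. Of 24 YAC128 libraries 19 lay below the lowest WT library (−0.56 ± 0.12, adjusted p = 0.0284), and the call was lost without WT replicate 4 or 6. Over WT it had −0.75 with aCSF, −0.36 with AON12.1 and −0.57 with the scrambled oligonucleotide (adjusted p among the groups 0.46). Among 21 glucocorticoid-induced genes tested, Sgk1 was the only call by edgeR, DESeq2 called 2, 12 had negative values, and the median was −0.02. The alarmin Il33 (−0.52 ± 0.12, adjusted p = 0.0548) and the metallothionein Mt2 (−0.38 ± 0.12, adjusted p = 0.175) did not pass.

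One of the 6 RefSeq promoter windows of Sgk1 is shown because it holds the glucocorticoid response element, searched on both strands as AGAACANNNTGTTC, which was present in 0.0487% of all windows and in no other window of the 18 glucocorticoid-induced genes matched. Capitals mark a single site that matches once on each strand. The 2 matches overlap and begin 189 and 188 bases before the start of this transcript (GRCm38.p6).
Sgk1, chr10:21993640-21993939, plus strand: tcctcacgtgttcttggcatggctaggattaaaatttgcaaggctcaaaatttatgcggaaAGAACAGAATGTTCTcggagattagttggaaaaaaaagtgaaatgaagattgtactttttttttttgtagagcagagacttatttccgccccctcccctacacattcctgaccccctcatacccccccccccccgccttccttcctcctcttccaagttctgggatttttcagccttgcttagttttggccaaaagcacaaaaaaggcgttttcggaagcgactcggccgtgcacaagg
The 3' counts do not tell which start the Sgk1 transcripts used.

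Among all tested genes, 45 (0.421%) differed among the 3 YAC128 groups, and 4 of them were among the 25 calls. For the other 21 calls that test did not pass, which does not show that the groups are alike. The values over WT share the WT libraries, and the calls were made on the mean of the same groups. Besides C4b, Apod and Qdpr, the fourth call that differed was 1110038B12Rik. On chromosome 17, 6 tested genes lie between C4b and 1110038B12Rik. 1110038B12Rik had 9.78, 21.7 and 134.3 CPM in YAC128 and 13, 19.9 and 22.5 CPM in WT (0.75 ± 0.14, adjusted p = 0.00731). Its values over WT were −0.14 with aCSF, 2.39 with AON12.1 and −0.001 with the scrambled oligonucleotide (adjusted p among the groups 9.43e-18), and with the AON12.1 group given no weight its value was −0.07. Lyz2, a lysozyme of myeloid cells (0.74 ± 0.19, adjusted p = 0.0801), and Prmt8, an arginine methyltransferase (0.42 ± 0.10, adjusted p = 0.0633), were not called for the YAC128 mean but differed among the groups. Lyz2 had −0.12, 1.17 and 1.16 over WT with aCSF, AON12.1 and scrambled (adjusted p 5.86e-04), and Prmt8 had −0.26, 0.60 and 0.90 (adjusted p 1.75e-07).

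**Figure D4:**
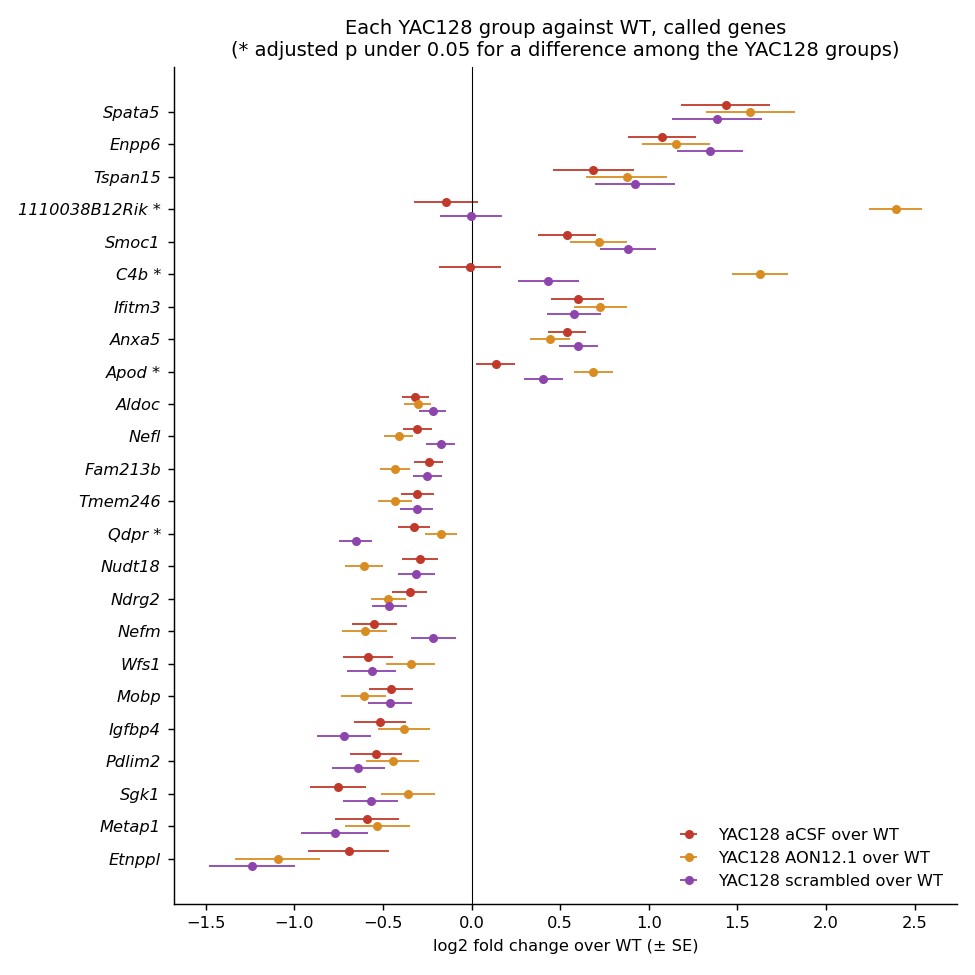
Log2 fold change over WT ± SE (x axis) of the called genes other than NM_001388492 (y axis), given for the aCSF, AON12.1 and scrambled YAC128 groups, which share the same 8 WT libraries. A star marks an adjusted p under 0.05 among the groups, for C4b, Apod, Qdpr and 1110038B12Rik, and the AON12.1 group reaches 2.39 for 1110038B12Rik and 1.63 for C4b.

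Values within the number series are given as a description, since the calls were made on the same libraries. Among mice numbered from 18 (8 YAC128, 3 WT) and from 19 (16 YAC128, 5 WT), Enpp6 had 1.04 and 1.26, Spata5 1.85 and 1.34, and Etnppl −1.07 and −1.05. The interaction of genotype with number series gave 0 calls with edgeR, the only tool run for it, with 473 genes at an unadjusted p under 0.05. The labels do not say what the number series stand for.

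No tested marker of thalamus and hypothalamus was called by edgeR, voom or DESeq2 without a covariate. Of 11 tested thalamus and hypothalamus markers, 10 had negative values, with a median of −0.49, and 5 had an unadjusted p under 0.05. With the share of reads outside features as a covariate, edgeR called 1 of the 11, and the median of the 11 was −0.54. Their summed level was 273.5, 472.5 and 3071 CPM in YAC128 and 330.9, 1047 and 2161 CPM in WT. Over WT, the median of the 11 was −0.15 with aCSF, −0.81 with AON12.1 and −0.38 with the scrambled oligonucleotide. The glutamate transporter Slc17a6 had 1.25, 10.2 and 67.5 CPM in YAC128 and 7.36, 24.4 and 53.0 CPM in WT (−1.27 ± 0.33, adjusted p = 0.09). By group, Slc17a6 had −0.54 ± 0.39 with aCSF, −1.65 with AON12.1 and −1.61 with the scrambled oligonucleotide (adjusted p among the groups 0.363). With the score of these markers as a covariate, a choice made after seeing the data, 80 genes were called, and 24 of the 25 were among them, all but Apod. In that fit Etnppl had −0.76 (adjusted p = 0.0129), Enpp6 1.13 (adjusted p = 2.39e-04), Mobp −0.58 (adjusted p = 9.53e-04) and Penk −0.63 (adjusted p = 0.00179).

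A choroid plexus marker reached its highest levels in few libraries. The transthyretin gene Ttr had 3.23, 24.8 and 3191 CPM in YAC128 and 4.66, 24.9 and 56.7 CPM in WT (1.51 ± 0.86, adjusted p = 0.445). Its highest value was in YAC128 aCSF replicate 4. All 4 tested members of the list had positive values, with a median of 0.28 and a summed level of 156.2, 193 and 3879 CPM in YAC128 and 131.7, 174.7 and 239.8 CPM in WT. Of the other members, Cldn2 had no count in 20 of 24 YAC128 and 8 of 8 WT libraries, and Kcne2 none in 14 and 6. The 12 tested cortical excitatory markers had a median of 0.15, with a summed level of 2060, 3257 and 6741 CPM in YAC128 and 2322, 2852 and 4788 CPM in WT. With cortex and choroid plexus scores as covariates 24 of the 25 calls were kept among 43.

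Nuclear long noncoding RNAs mostly had positive values, and their median was lower with the share of reads outside features as a covariate. Of 13 tested, 11 had positive values with a median of 0.47, and 6 had an unadjusted p under 0.05. None was called by edgeR, voom or DESeq2 over all libraries without a covariate. Their summed level was 4870, 11520 and 25120 CPM in YAC128 and 4759, 7813 and 23070 CPM in WT. Without WT replicate 1, edgeR called 3 of the 13 higher. With that share as a covariate the median of the 13 was 0.02. The share itself was higher in YAC128, so this fit cannot separate it from genotype. In the same fit 18 genes were called, 13 of the 25 among them, and the calls lost included Nefm (−0.39), Nefl (−0.25), Aldoc (−0.25), Sgk1 (−0.48) and C4b (0.61), each with a value somewhat nearer to 0 than without the covariate. Enpp6 (1.17, adjusted p = 1.71e-04), Spata5 (1.55, adjusted p = 1.71e-04), Etnppl (−1.11, adjusted p = 0.00331), Ifitm3 (0.73, adjusted p = 0.00361) and Mobp (−0.50, adjusted p = 0.0222) were kept. When WT replicate 1 was left out as well, a choice made after seeing the data, 11 genes were called and 8 of the 25 were among them. Ifitm3 (0.60, adjusted p = 0.0535) and Mobp (−0.43, adjusted p = 0.203) were then lost.

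**Figure D5:**
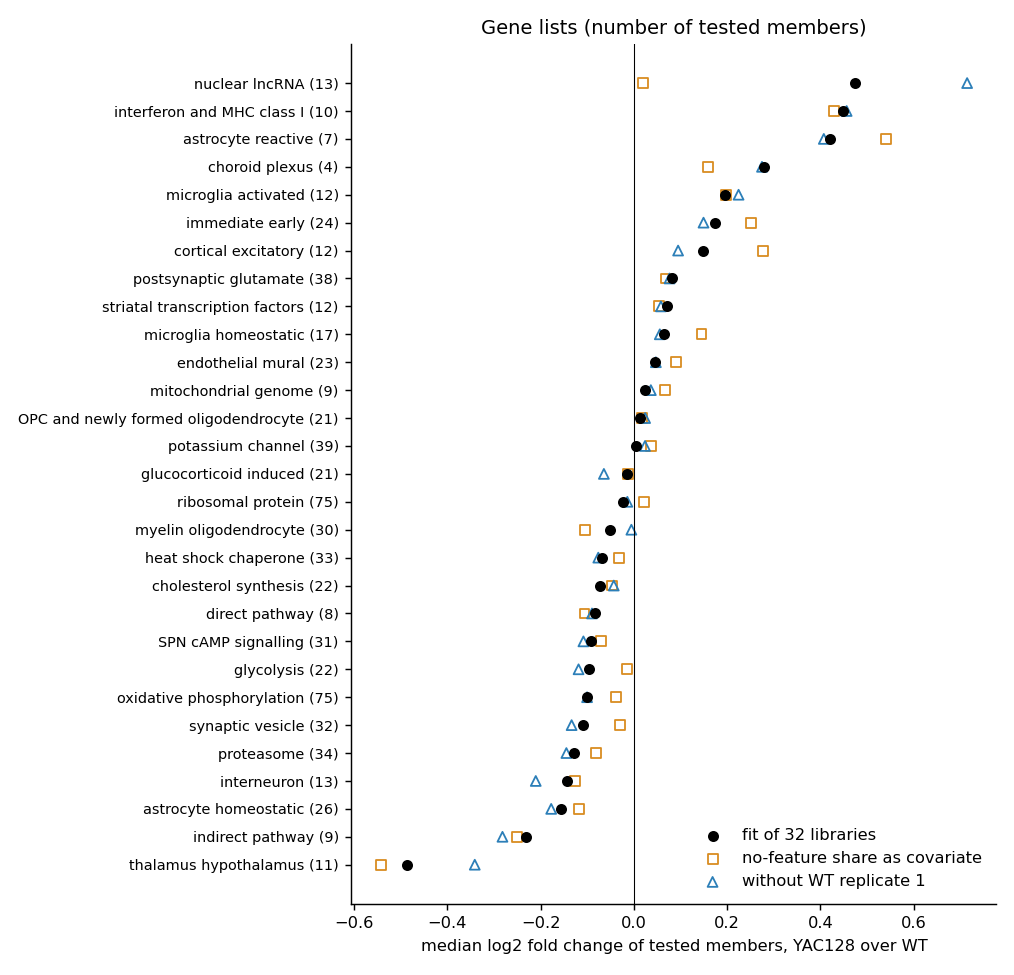
Median log2 fold change of each gene list's tested members (x axis, YAC128 mean over WT), with lists and their number of tested members on the y axis, in the fit of 32 libraries (filled), with the share of reads outside features as covariate (squares) and without WT replicate 1 (triangles). The interferon and MHC class I median stays near 0.45 in all 3, whereas that of the nuclear lncRNAs is 0.47, 0.02 and 0.71.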

How the data were processed

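Per the submitters' processing notes, FastQC, cutadapt 2.10, STAR 2.7.5a and HTSeq 0.12.4 were used with the GRCm39 build. UMI collapsing and strand use in counting are not given in the sources used here, so overlapping and antisense genes cannot be told apart. The authors deposited whole-number raw counts per gene, 1 file per library. The 5 summary lines of each file entered neither library sizes nor tests. Gene names, chromosomes and neighbour order were looked up by Ensembl identifier in a GRCm38 annotation, which named 52081 of 55415 features.

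The analysis used edgeR 4.0.16 under R 4.3.3: TMM factors, filterByExpr (minimum count 10, minimum total 15), 10679 genes, 1 quasi-likelihood fit of 32 libraries and the contrast of the equally weighted YAC128 groups with WT. P-values were adjusted by Benjamini-Hochberg over all tested genes and called under 0.05. The steps were tested on simulated data. limma 3.58.1 (voom) and DESeq2 1.42.0 were alternatives, as were other filters, covariates, weights and left-out libraries. The genes named are NM_001388492 and Htt, the 12 called genes with the smallest p in each direction (leaving out predicted, clone-named and sex-linked genes), the 3 leading members at most of any list with a call, and fixed reference genes. The other genes named were added after their values were seen. The members and gene lists were chosen with earlier results of these data known. Lists are described by counts and medians, with no list test.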

Additional observations from a re-analysis of the deposited data

Results flagged for a closer look

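A gap test on each group of 8 libraries marked 26 of 256 gene-by-group sets, where chance gives about 1 in 20, or 12.8. AON12.1 replicate 2 was the highest of its group, well apart, for Apod (805.9 CPM), Qdpr (438.6), Mobp (666.8), Mbp (4018), Bcas1 (265.4), Il33 (98.7), Adora2a (127.8) and Scn4b (383.5). Scrambled replicate 5 was highest for Slc17a7 (688.6 CPM) and Metap1 (32.5) and lowest for Penk (1340), and AON12.1 replicate 1 was highest for Slc17a7 (355.5). Scrambled replicate 7 was highest for Etnppl (52.8 CPM) and S100b (786.6), and scrambled replicate 3 for Mdm2 (45.2). AON12.1 replicate 3 was lowest for Ifitm3 (32.9 CPM) and AON12.1 replicate 8 highest for Nudt18 (89.4). In YAC128 aCSF, replicate 2 was highest for Slc17a6 (67.5 CPM) and lowest for Mbp (1624), replicate 3 highest for Pde10a (330.4) and replicate 4 highest for Ttr (3191). In WT, replicate 1 was highest for Htt (129.5 CPM), replicate 4 highest for Apod (468.9) and H2-K1 (48.6), replicate 3 lowest for Qdpr (298) and replicate 6 lowest for Fam213b (162.7).

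Levels differed among the 3 YAC128 groups, by edgeR's quasi-likelihood test over all genes, for 1110038B12Rik (adjusted p = 9.43e-18), C4b (2.39e-09) and Prmt8 (1.75e-07). In the same test Lyz2 (adjusted p = 5.86e-04), Ttr (0.0105), Qdpr (0.0138) and Apod (0.0218) also differed. The test compared treatments within YAC128 mice, and no WT mouse received an oligonucleotide, so it does not show that a genotype difference varies. For Ttr the values over WT were 4.01 with aCSF, 0.64 with AON12.1 and −0.11 with the scrambled oligonucleotide, and YAC128 aCSF replicate 4 held the highest level.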

How the results depend on the processing

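No paired analysis was possible because the labels give no replicate numbers that groups share. Against 25 calls (10 higher, 15 lower) and 45 among the YAC128 groups, the counts moved by over 1.5 times as follows, and the cause was not tested. Without a filter on low counts there were 48 calls, 36 of them lower, and 74 among the groups. DESeq2 gave 74 calls (23 higher, 51 lower) and 71 among the groups. The no-feature share as a covariate gave 7 lower calls. Cortex and choroid plexus scores gave 43 calls, 23 higher. Subsets of the libraries gave 10 calls with 3 lower and 12 among the groups at a no-feature share up to 25%, 2 (1 higher, 1 lower) in number series 18, and 9 (3 higher, 6 lower) with 6 among the groups in series 19. Treating the YAC128 libraries as 1 group gave 11 calls (6 higher, 5 lower). Weight 0 for AON12.1 gave 14 (5 higher, 9 lower), and for YAC128 aCSF 58 (25 higher, 33 lower). Leaving out 1 library gave 13 to 103 calls, 7 to 67 higher and 5 to 36 lower, and 27 to 71 among the groups. Of alternatives chosen after seeing the data, leaving out 3 libraries gave 118 calls (76 higher, 42 lower) and 27 among the groups, the no-feature share without WT replicate 1 gave 11 with 4 lower, and the thalamus and hypothalamus score gave 80 (26 higher, 54 lower) and 29 among the groups. The no-feature difference was 2.65 percentage points in series 18, not past the test, and 5.87 without WT replicate 1.

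Of the 25 calls, 11 were kept in all 32 fits without 1 library. For 11 others the calls lost were lost only in fits without a WT library, and for Apod, Tspan15 and Metap1 also without a YAC128 library. The sign was reversed only for 1110038B12Rik, at −0.072 (not called) with weight 0 for AON12.1. Over all alternatives the adjusted p ran from 2.67e-08 to 0.263 for Enpp6, 3.29e-05 to 0.263 for Spata5, 1.79e-04 to 0.416 for Etnppl, 0.00128 to 0.668 for Ifitm3, 1.94e-04 to 0.661 for Mobp, 8.38e-04 to 0.75 for Aldoc, 0.00179 to 0.615 for Penk and 0.00619 to 0.823 for Adora2a, each highest in series 18 alone with 3 WT libraries. DESeq2 gave no adjusted p for Spata5. Genes that did not reach about 10 counts in about as many libraries as 1 group holds were not tested. A tested gene can therefore lie below that level in WT.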

Other observations

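Energy, protein turnover and synaptic genes mostly had small negative values in YAC128. Over all 10679 tested genes, 5345 had negative values. At an unadjusted p under 0.05, 725 (6.79%) were lower and 719 (6.73%) higher. Of 75 oxidative phosphorylation genes tested, 65 had negative values, with a median of −0.10. None was called by edgeR or voom, DESeq2 called 2, and 14 had an unadjusted p under 0.05. Of 34 proteasome subunits, 30 had negative values with a median of −0.13, none was called by edgeR, voom or DESeq2, and 10 had an unadjusted p under 0.05. Of 32 synaptic vesicle genes, 25 had negative values with a median of −0.11, none was called by edgeR or voom, DESeq2 called 1, and 7 had an unadjusted p under 0.05. With the share of reads outside features as covariate these medians were −0.04, −0.08 and −0.03. Glycolysis genes had a median of −0.10, with Aldoc as the only edgeR call among 22.

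Immediate early genes had small positive values, 23 of 24 tested, with a median of 0.17 (0.02 with aCSF, 0.20 with AON12.1 and 0.27 with the scrambled oligonucleotide over WT). None was called by edgeR, voom or DESeq2 and 1 had an unadjusted p under 0.05. Their summed level was 1035, 1401 and 1937 CPM in YAC128 and 1040, 1296 and 1566 CPM in WT, so the ranges overlapped. Interneuron markers had negative values in 12 of 13, with a median of −0.14, no call by edgeR, voom or DESeq2 and 3 at an unadjusted p under 0.05. Among them parvalbumin, Pvalb, had −0.49 ± 0.20 (adjusted p = 0.254). Of 21 activated microglia genes listed, 12 were tested. Of these, 9 had positive values, and the median was 0.19 (−0.03 with aCSF, 0.38 with AON12.1 and 0.20 with the scrambled oligonucleotide over WT). None was called by edgeR, voom or DESeq2, and 4 were higher and 1 lower at an unadjusted p under 0.05.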
